A study of Mus musculus with 9 samples.

Results

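The S100 genes followed here are 10 members of the mouse S100 family, S100a1, S100a4, S100a6, S100a7a, S100a8, S100a9, S100a10, S100a11, S100a13 and S100a16, out of 56620 genes and loci in the transcript table. S100a7a was singled out because its level was higher in hyperoxia than in room air, and the other 9 were taken as its relatives. Its own values in that comparison are therefore a description, with no test. The question was whether the other S100 genes moved with it. Of the 10 genes, 8 had a mean of at least 1 FPKM (fragment counts scaled to transcript length and to library size) and were tested. S100a8 and S100a9 were below that level.

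RNA was sequenced from primary mouse pulmonary microvascular endothelial cells (PMVECs, which line the smallest lung vessels) obtained from a company. The RA group was kept at 21% O2, the HO group at 85% O2, and the HO-rWNT5A group at 85% O2 with 100 ng/ml rWNT5A added. WNT5A is a secreted Wnt ligand, and all 3 groups were cultured for 48 h, with 3 libraries each. Nothing in the labels says whether the 3 libraries of a group are separate cultures. The p-values therefore set group differences only against the spread among these libraries, and that spread may be technical. RNA was total RNA from whole cultures, in which fewer cells of a type and less RNA per cell cannot be told apart.

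S100 proteins are small calcium sensors with a pair of EF-hand loops. Most work as dimers: calcium opens a surface that grips a partner, such as an annexin or a myosin. Some are also released from cells and act on receptors such as RAGE (encoded by Ager) and TLR4. Most of the genes sit together on mouse chromosome 3, beside the epidermal differentiation complex, a block of genes for the proteins of the cornified skin layer. S100a7a is the mouse relative of human psoriasin, known from inflamed skin. S100a8 and S100a9 encode calprotectin, an abundant protein of neutrophils and monocytes.

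Most markers of the labelled cell type were at or near 0. Of 15 endothelial markers, 11 had a mean under 1 FPKM, among them Pecam1 at 0.093, Cdh5 at 0.0543 and Vwf at 0.0441 scaled FPKM, while Flt1 averaged 37.9 and Emcn 10.1. Of 10 pericyte and smooth muscle markers, 7 reached 5 FPKM, as did 4 of 10 fibroblast and 4 of 10 epithelial markers. The summed endothelial level was 52.8 to 57.7 in RA, 51.9 to 58.3 in HO, then 43.4 to 54.7 in HO-rWNT5A. Most of that sum is Flt1. The median log2 difference of the 5 tested endothelial markers was 0.08 in HO and 0.19 in HO-rWNT5A against RA. In HO-rWNT5A against RA the log2 difference was -0.30 for Flt1, 0.08 for Emcn, 0.19 for Kdr, 0.20 for Egfl7 and 0.59 for Ramp2. Kdr, with a mean of 0.852 scaled FPKM in RA, reached the level for testing through its HO and HO-rWNT5A libraries. Egfl7, at 0.953 in RA and 0.852 in HO, did so through its HO-rWNT5A libraries. No endothelial rise is therefore read from these medians. The summed pericyte and smooth muscle level was 2950 to 3303, 2422 to 3312 and 2712 to 3118, the fibroblast level 1548 to 1667, 1525 to 1612 and 1533 to 1596, and the epithelial level 132 to 159, 134 to 171 and 132 to 154. Most of the fibroblast sum is Fn1 (mean 1328). The median log2 difference of the 5 tested fibroblast markers was -0.18 in HO and -0.29 in HO-rWNT5A against RA, with Col1a1 at a mean of 205 in RA, 176 in HO, then 169 in HO-rWNT5A. The median log2 difference of the 7 tested pericyte and smooth muscle markers was -0.19 in HO and -0.25 in HO-rWNT5A against RA. Unlike the other tested markers of that list, Notch3 rose in HO against RA (1.69-fold by its means, limma adjusted p = 0.0349). That call was lost without RA replicate 1 (0.0697), 2 (0.112) or 3 (0.121), HO replicate 2 (0.101) or HO-rWNT5A replicate 2 (0.0613) or 3 (0.0503). The part of cell composition in the results was not tested.

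The promoters of 3 neighbouring genes are printed because these genes lie next to each other and yet had very different levels: S100a6 was the highest of the family, S100a7a was low and higher in both 85% O2 groups, and S100a8 was at or near 0. The 300-base windows are those of RefSeq on GRCm38.p6, 5′ to 3′ on the plus strand, at chr3:90654052-90654351 for S100a7a, chr3:90612644-90612943 for S100a6 and chr3:90668821-90669120 for S100a8. Capitals mark matches on either strand to the TATA box (TATAAA), to the AP-1 site (TGANTCA) and to the cAMP response element (TGACGTCA).
S100a7a: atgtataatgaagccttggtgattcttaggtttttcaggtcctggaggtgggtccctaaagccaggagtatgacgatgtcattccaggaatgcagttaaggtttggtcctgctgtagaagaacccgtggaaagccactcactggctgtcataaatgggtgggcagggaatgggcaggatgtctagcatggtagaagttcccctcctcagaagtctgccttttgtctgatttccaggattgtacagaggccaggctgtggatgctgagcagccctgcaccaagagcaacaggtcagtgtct
S100a6: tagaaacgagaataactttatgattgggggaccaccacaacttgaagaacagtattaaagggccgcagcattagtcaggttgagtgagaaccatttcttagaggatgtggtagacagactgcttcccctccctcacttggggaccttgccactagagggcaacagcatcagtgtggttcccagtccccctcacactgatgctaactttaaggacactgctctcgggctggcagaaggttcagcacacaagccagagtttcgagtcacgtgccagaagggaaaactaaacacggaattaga
S100a8: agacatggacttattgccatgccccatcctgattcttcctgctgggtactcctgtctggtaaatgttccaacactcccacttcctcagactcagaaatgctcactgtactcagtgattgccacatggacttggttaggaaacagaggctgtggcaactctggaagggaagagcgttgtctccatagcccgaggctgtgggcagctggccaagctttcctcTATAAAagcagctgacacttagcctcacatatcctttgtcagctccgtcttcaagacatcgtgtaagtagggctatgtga

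The S100a7a window begins after the annotated start of the gene given below, so it lies inside that gene body, and bases upstream of that start were not searched. Of these 3 windows, S100a8 alone held a match, a TATAAA, which 13.6% of 32851 RefSeq promoter windows also held. Those of S100a4 and S100a9 held a TATAAA as well. The S100a7a window held none of 6 patterns searched on both strands, the other 5 being TGANTCA (in 7.81% of windows), TGACGTCA (1.79%), GGGCGG (35.7%), the p53 half-site (8.36%) and the NF-kappaB site (4.51%). The S100a6 window also held none of them, and the S100a11 window held 2 TGANTCA and 3 GGGCGG matches. An S100a16 window held 1 TGANTCA and 1 GGGCGG, and the S100a9 window 1 GGGCGG and 1 p53 half-site. Windows were found for 9 of the 10 genes, the exception being S100a10. A match is a run of letters only.

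S100a7a (ENSMUSG00000063767.4, chromosome 3, 90654017 to 90658669, plus strand, mm10) was low in room air and higher in both hyperoxic groups. The 3 RA libraries stood at 2.39, 2.78 and 2.26 scaled FPKM (2.48 ± 0.269, SD, n = 3). The HO libraries stood at 4.61, 6.85 and 6.26 (5.91 ± 1.16), and the HO-rWNT5A libraries at 5.54, 5.88 and 9.75 (7.06 ± 2.34). Every library at 85% O2 was above every RA library, and replicate 3 of HO-rWNT5A was the highest of the 9.

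The mean of S100a7a was 2.39 times the RA mean in HO and 2.85 times it in HO-rWNT5A. On the log2(scaled FPKM + 1) scale, which understates the change of a low gene, the differences were 0.98 ± 0.18 (SE) and 1.18 ± 0.18. Both comparisons use the same RA libraries. By size of rise S100a7a ranked 17 of 13831 tested genes in each of them. About 67.0 to 74.9 fragments stood behind its value in an RA library, 96.5 to 147 in an HO library and 130 to 247 in an HO-rWNT5A library, by an estimate of depth from the lowest FPKM steps. By that estimate the counting error was 6.37% to 12.2%, which covers counting only. The estimate is rough, since only 8.02% to 9.02% of values came out as whole fragments within 0.02.

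Between the hyperoxic groups the values of S100a7a overlapped. In HO-rWNT5A against HO its log2 difference was 0.20 ± 0.18 (SE), and without replicate 3 of HO-rWNT5A it was -0.03. This contrast uses the HO libraries on which S100a7a was chosen, so it too is a description, with no test.

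**Figure D1:**
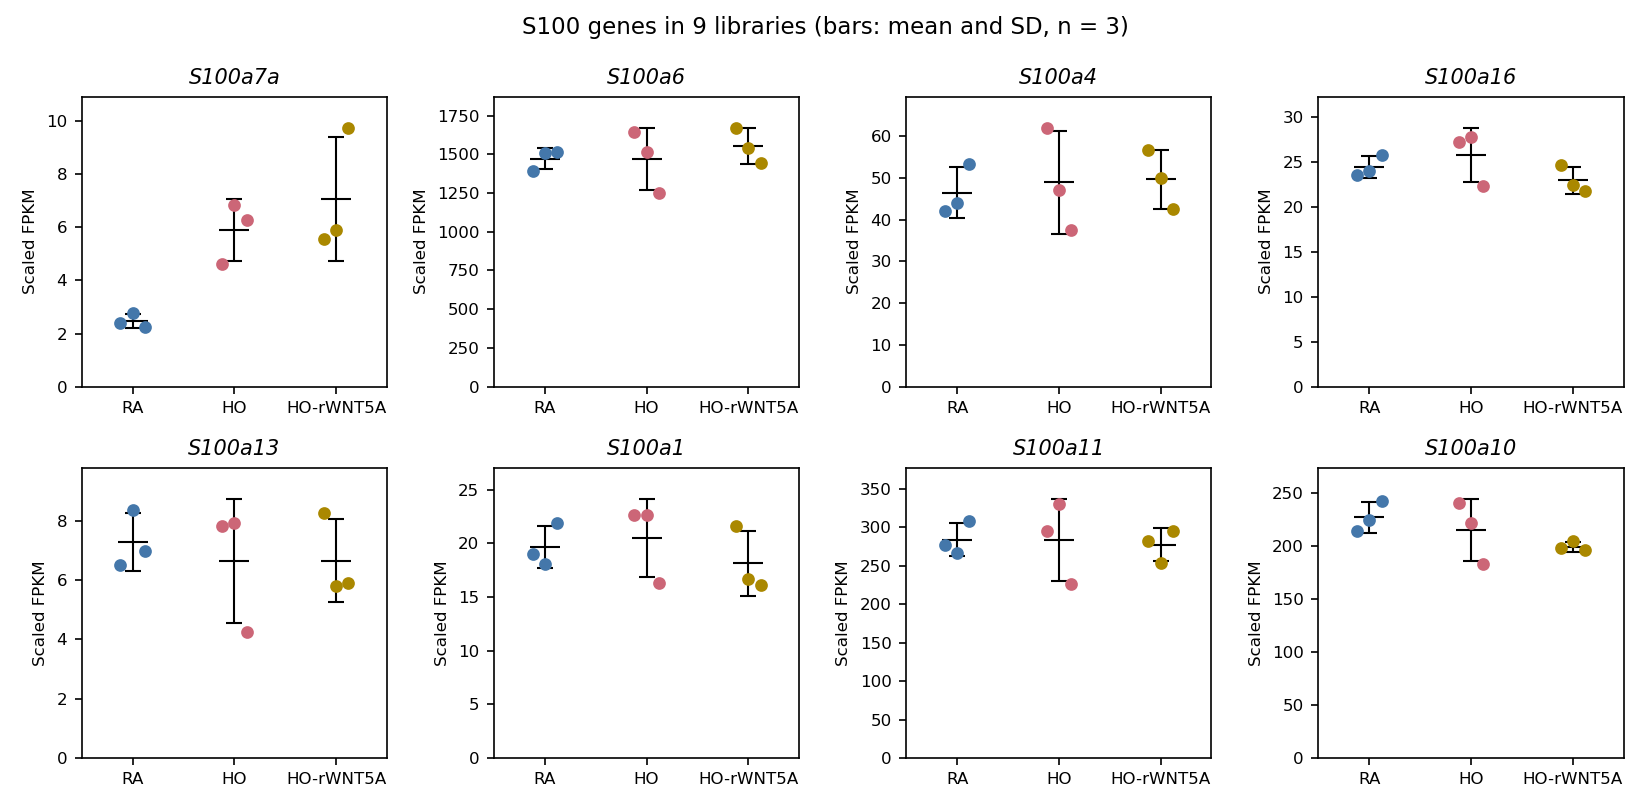
Level of the 8 tested S100 genes in each library, in scaled FPKM on a linear axis from 0; points are libraries, the cross bar is the mean and the whisker the SD of 3. S100a7a sits at 2.26 to 2.78 in RA and at 4.61 to 9.75 in the other 6 libraries, whereas the RA and HO points of the other 7 genes overlap.

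The transcript table lists 2 transcripts of S100a7a, and both were higher in each 85% O2 library than in each RA library. The protein-coding transcript S100a7a-201 (1280 bases) had 2.11 ± 0.311 scaled FPKM in RA (SD, n = 3), 4.42 ± 1.15 in HO, then 5.73 ± 2.03 in HO-rWNT5A. The short processed transcript S100a7a-202 (137 bases) had 0.362 ± 0.0857, 1.48 ± 0.319 and 1.33 ± 0.35. At so short a length these levels stand for few fragments, so the values of S100a7a-202 are imprecise. S100a7a-201 made up 67.2% to 89.0% of the gene's summed level. How the estimation split reads between overlapping transcripts cannot be seen in FPKM values.

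**Figure D2:**
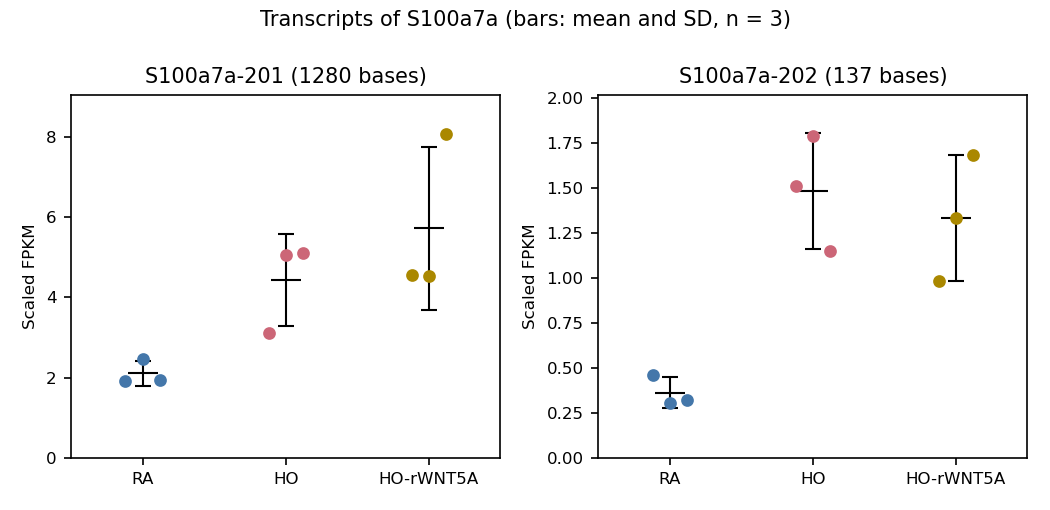
Level of the 2 S100a7a transcripts in each library, in scaled FPKM on separate linear axes from 0 (points are libraries; bars are the mean and SD of 3). For both, the 6 libraries at 85% O2 lie above the 3 RA libraries. S100a7a-202 averages 1.48 in HO, then 1.33 in HO-rWNT5A, and rests on few fragments.

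The nearest tested relative, S100a6 (90612882 to 90624181, plus strand), lies 29.8 kb from S100a7a and encodes calcyclin, known for its rise in growing cells. Its RA libraries had 1392, 1507 and 1515 scaled FPKM, its HO libraries 1646, 1513 and 1252, and its HO-rWNT5A libraries 1672, 1542 and 1446. The 3 groups overlapped, with means of 1471 ± 68.9, 1470 ± 200 and 1553 ± 113 (SD, n = 3). S100a6 ranked 9 of 21911 protein-coding genes by mean level and held 69.5% to 73.7% of the summed level of the 10 S100 genes. There were 543 to 669 units of S100a6 for each unit of S100a7a in RA, 200 to 357 in HO, then 148 to 302 in HO-rWNT5A.

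S100a4 (90603771 to 90606045, plus strand), 48.0 kb away, binds non-muscle myosin and is often used as a fibroblast marker. It had 42.0, 43.9 and 53.4 scaled FPKM in RA, 62.0, 47.0 and 37.6 in HO, with 56.6, 49.9 and 42.4 in HO-rWNT5A. The HO libraries alone spanned the whole range of the other 6. Its gene body overlaps Gm42674 on the same strand, so reads between them could be split by the counting.

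S100a16, S100a13 and S100a1 lie 111, 129 and 140 kb from S100a7a. S100a16 (90537254 to 90543151, plus strand), a widely expressed member, averaged 24.5 ± 1.19 scaled FPKM in RA, 25.8 ± 3.01 in HO, then 23.0 ± 1.44 in HO-rWNT5A (SD, n = 3). S100a13 (90514435 to 90524581, plus strand), which takes part in the release of FGF1, averaged 7.29 ± 0.973, 6.66 ± 2.09 and 6.66 ± 1.39. S100a1 (90511034 to 90514392, minus strand), known for calcium handling in muscle, averaged 19.7 ± 1.96, 20.5 ± 3.65 and 18.2 ± 3.03. In all 3 genes the groups overlapped in each comparison.

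S100a11 and S100a10 lie on the far side of the epidermal differentiation complex, 2862 and 2896 kb from S100a7a. S100a11 (93520488 to 93526287, plus strand), the partner of annexin A1, had 277, 267 and 309 scaled FPKM in RA, 295, 331 and 226 in HO, with 283, 254 and 296 in HO-rWNT5A. S100a10 (93555080 to 93564643, plus strand), the partner of annexin A2, had 214, 225 and 243 in RA, 241, 222 and 183 in HO, with 198, 205 and 196 in HO-rWNT5A. Every HO-rWNT5A library of S100a10 was below every RA library, as was so for 16.5% of tested genes, and its log2 difference of -0.18 (95% interval -0.40 to 0.03) did not pass the test (limma adjusted p = 0.312).

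S100a8 lies closest of all, 10.3 kb beyond S100a7a (90668978 to 90670035, plus strand). It was listed at 0 in the 3 RA libraries, at 0, 0.0638 and 0.178 scaled FPKM in HO, and at 0.0683, 0.178 and 0.157 in HO-rWNT5A. These values stand for an estimated 0.639 to 1.90 fragments in the 5 libraries above 0, too few to compare. S100a9 (90692632 to 90695721, minus strand) was listed at 0 in all 9 libraries. Of 15 neutrophil and monocyte markers, 13 had a mean under 1 FPKM and Ly6g, Mpo, Ngp and Retnlg were at 0. Their summed level was 6.24 to 7.77 in RA, 4.56 to 11.8 in HO, then 4.27 to 9.70 in HO-rWNT5A, with Lyz2 at a mean of 4.48.

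By mean level the order was S100a6, S100a11, S100a10, S100a4, S100a16, S100a1, S100a13, S100a7a, S100a8 and S100a9. The ranges over the 9 libraries overlapped for S100a11 and S100a10, for S100a16 and S100a1, for S100a13 and S100a7a, and for S100a8 and S100a9. S100a13 was above S100a7a in 6 of 9 libraries. Among the other family genes in the annotation, S100a3 came next with a mean of 0.984 scaled FPKM (0.628 to 1.38), just under the filter. S100a14 averaged 0.0455, S100a5, S100b, S100g and S100z were at 0 in 7 or more libraries with no value above 0.069, and S100a2 was listed at 0 in all. S100pbp, which encodes a protein that binds S100P and is no S100 itself, averaged 14.7.

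The difference of S100a7a between HO and RA was not seen in the 7 other tested S100 genes. Their log2 differences lay between -0.15 (S100a13) and 0.07 (S100a16), with standard errors of 0.085 to 0.20, against 0.98 ± 0.18 for S100a7a. Their 95% intervals reached from -0.59 to 0.42. The RA and HO libraries overlapped in each of the 7, while all HO libraries were above all RA libraries in 11.3% of tested genes. At an adjusted p of 0.05, 1 of the 8, S100a7a, was among the 273 genes (1.97% of 13831) that passed, and at an unadjusted p of 0.05 it was again the 1 of 8, where 18.1% of all genes passed. Since it was chosen on this contrast, nothing is read from those counts. The median log2 difference was 0.02 over the 8 genes, -0.01 without S100a7a, and 0.00 over all tested genes.

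In HO all 7 genes were lowest in replicate 3, the library in which annotated structural RNA (small nuclear, small nucleolar and similar RNA) took 20.1% of total FPKM, against 27.4% and 26.5% in replicates 1 and 2. S100a7a was not lowest there but in replicate 1. Without HO replicate 3 the log2 differences of the 7 against RA were 0.03 (S100a10) to 0.22 (S100a4), and that of S100a7a was 0.94. The part of library composition in these values was not tested.

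With rWNT5A at 85% O2, none of the 7 relatives of S100a7a passed the test against HO. In limma's test 0 of 7 passed at an adjusted p of 0.05, where 0.00723% of all tested genes did, and 0 of 7 at an unadjusted p of 0.05, where 9.2% did. In 6.27% of tested genes all HO-rWNT5A libraries lay above HO, and in 6.7% all lay below. The log2 differences ran from -0.16 (S100a1 and S100a16) to 0.09 (S100a6), with adjusted p of 0.587 to 0.983. The 95% intervals differed in width, from -0.35 to 0.03 for S100a16 to -0.41 to 0.47 for S100a13, and a p above the threshold does not show that a gene stayed level. Without HO replicate 3 all 7 were lower in HO-rWNT5A than in HO, by log2 differences of -0.31 (S100a1) to -0.03 (S100a6), and 0 of 7 passed. With all libraries the median of the 7 was -0.02, against 0.00 over all genes.

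Against RA, with the same RA libraries as before, HO-rWNT5A gave 0 calls among the 7 relatives (limma adjusted p of 0.312 to 0.912, and 0 at an unadjusted p of 0.05). Over all tested genes 4.26% passed after adjustment and 20.9% before it. The log2 differences of the 7 ran from -0.18 (S100a10) to 0.09 (S100a4), and their 95% intervals reached from -0.56 (S100a13) to 0.46 (S100a4). S100a7a passed here with its difference of 1.18, from which nothing is read. The median was -0.06 over the 8 genes, -0.09 without S100a7a and 0.00 over all genes.

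**Figure D3:**
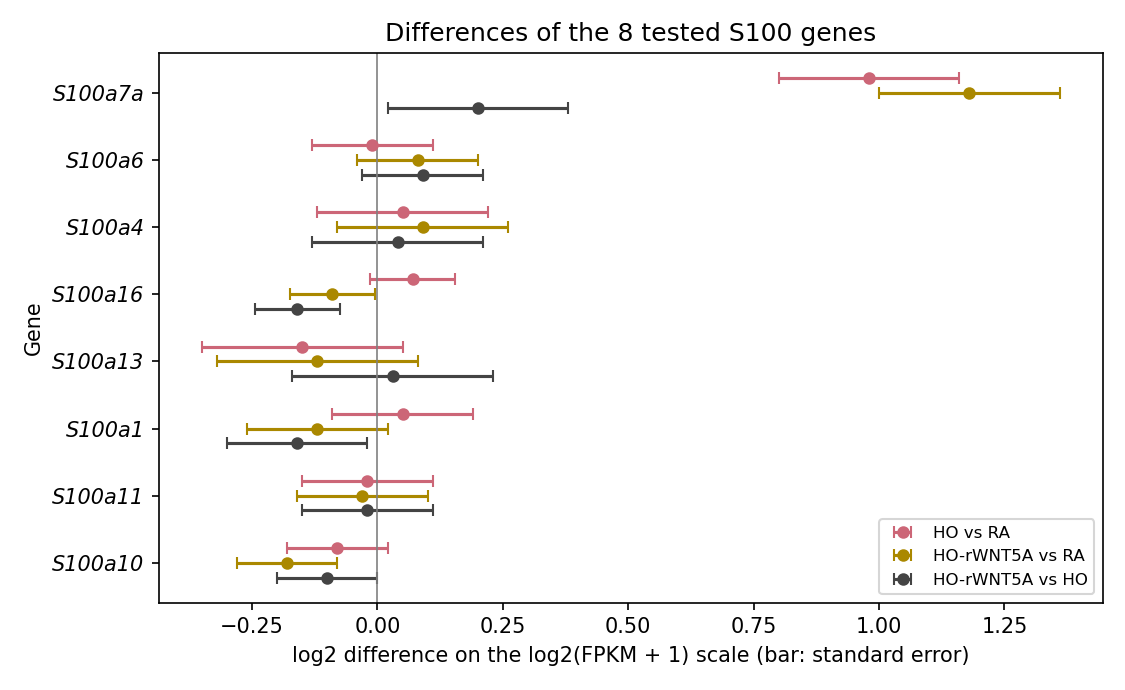
log2 difference of each tested S100 gene in the 3 comparisons (horizontal axis, on the log2(scaled FPKM + 1) scale); bars are standard errors of the fit. S100a7a lies at 0.98 and 1.18 against RA and at 0.20 against HO, and the other 7 genes lie between -0.18 and 0.09.

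No tested gene close to S100a7a on the chromosome passed the test. The gene bodies of 47 other genes in the table lie within 500 kb of it, and 21 of them were tested, 5 of which are the S100 genes S100a1, S100a4, S100a6, S100a13 and S100a16 described above. In each of the 3 comparisons 0 of the 21 passed, where 1.97%, 0.00723% and 4.26% of all tested genes did in HO against RA, HO-rWNT5A against HO and HO-rWNT5A against RA. At such shares a count of 0 among 21 genes is near the background. Their log2 differences in HO against RA ran from -0.15 to 0.11, with 0 genes whose HO libraries all lay above RA (11.3% of all tested genes) or all below (10.1%). In HO-rWNT5A against RA they ran from -0.19 to 0.24, with 2 genes all above (16.3% of all tested genes) and 2 all below (16.5%).

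On the lower-coordinate side the 4 nearest tested genes were S100a6, S100a4, S100a16 and S100a13. On the other side the first tested gene, Gm9774, lay 1769 kb away, followed by Sprr1a at 1825 kb, the pseudogene Gm4202 at 2031 kb and Lce1g at 2091 kb. Gm9774 had log2 differences of -0.06 in HO and -0.07 in HO-rWNT5A against RA, and Gm4202 of -0.02 and 0.08. From S100a1 to S100a10, a span of 3054 kb with 121 genes in the table, 14 genes were tested. Besides S100a7a, Lce1h alone passed in any comparison.

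**Figure D4:**
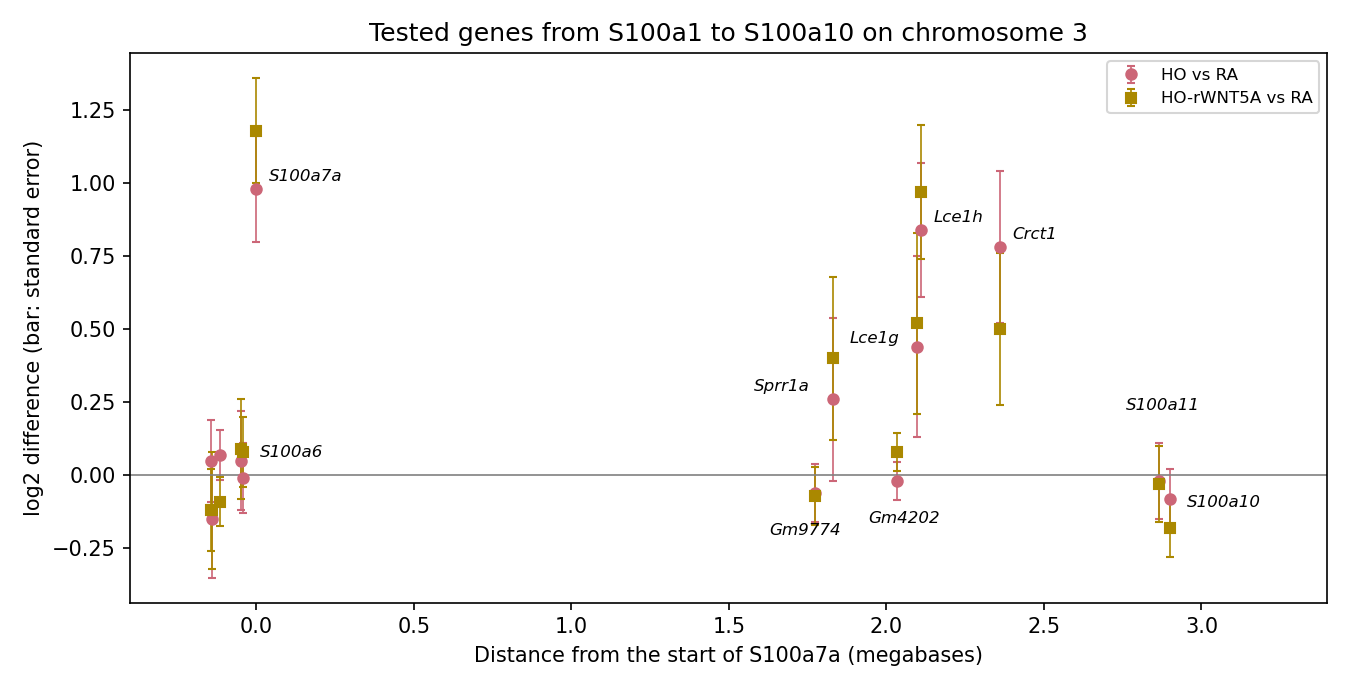
log2 difference from RA of the 14 tested genes between S100a1 and S100a10 on chromosome 3, by distance from the start of S100a7a in megabases; bars are standard errors. S100a7a lies at 0.98 and 1.18, its nearest tested neighbours lie near 0, and Sprr1a, Lce1g, Lce1h and Crct1 lie at 0.26 to 0.97, of which Lce1h alone passed the test, in HO-rWNT5A against RA.

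The epidermal differentiation complex genes encode proteins of the cornified envelope, such as the small proline-rich (Sprr) and late cornified envelope (Lce) families. Of 52 in the list, 48 had a mean under 1 FPKM and 28 were at 0 in all libraries, which leaves 4 tested genes. Lce1h (92763215 to 92765065, minus strand) had 0.958, 0.786 and 2.08 scaled FPKM in RA, 2.12, 3.90 and 3.0 in HO, with 2.47, 3.47 and 4.19 in HO-rWNT5A. Every library at 85% O2 was above every RA library, the closest pair being 2.08 and 2.12. All HO libraries lay above RA in 11.3% of tested genes, and all HO-rWNT5A libraries did so in 16.3%.

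Lce1h rose in HO-rWNT5A against RA, by a log2 difference of 0.97 ± 0.23 (limma adjusted p = 0.0446), while in HO against RA its 0.84 ± 0.23 did not pass (0.0951). That call was lost without RA replicate 1 (adjusted p = 0.151) or 2 (0.142) and without HO-rWNT5A replicate 1 (0.0588), 2 (0.137) or 3 (0.138). Over its 19 alternatives the adjusted p ranged from 0.0297 to 0.159. Lce1 genes are near-identical copies, so reads may have been split among them and the value of each is uncertain.

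The other 3 tested genes of the complex passed in no comparison. Lce1g averaged 4.40 ± 0.641 scaled FPKM in RA, 6.78 ± 3.57 in HO, then 7.07 ± 3.07 in HO-rWNT5A (SD, n = 3). Crct1 averaged 1.04 ± 0.264, 2.72 ± 1.66 and 1.89 ± 0.496, with all HO libraries above RA, as in 11.3% of tested genes. Sprr1a averaged 0.802 ± 0.107, 1.27 ± 0.815 and 1.47 ± 0.847. In all 4 genes, as in S100a7a, replicate 2 was the highest and replicate 1 the lowest of the HO libraries. Of the HO-rWNT5A libraries, replicate 3 was the highest and replicate 1 the lowest. How many of all tested genes share this order was not counted, so nothing is read from it.

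The mean of Sprr1a in RA was under 1 FPKM, so it passed the level filter through the 85% O2 libraries.

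**Figure D5:**
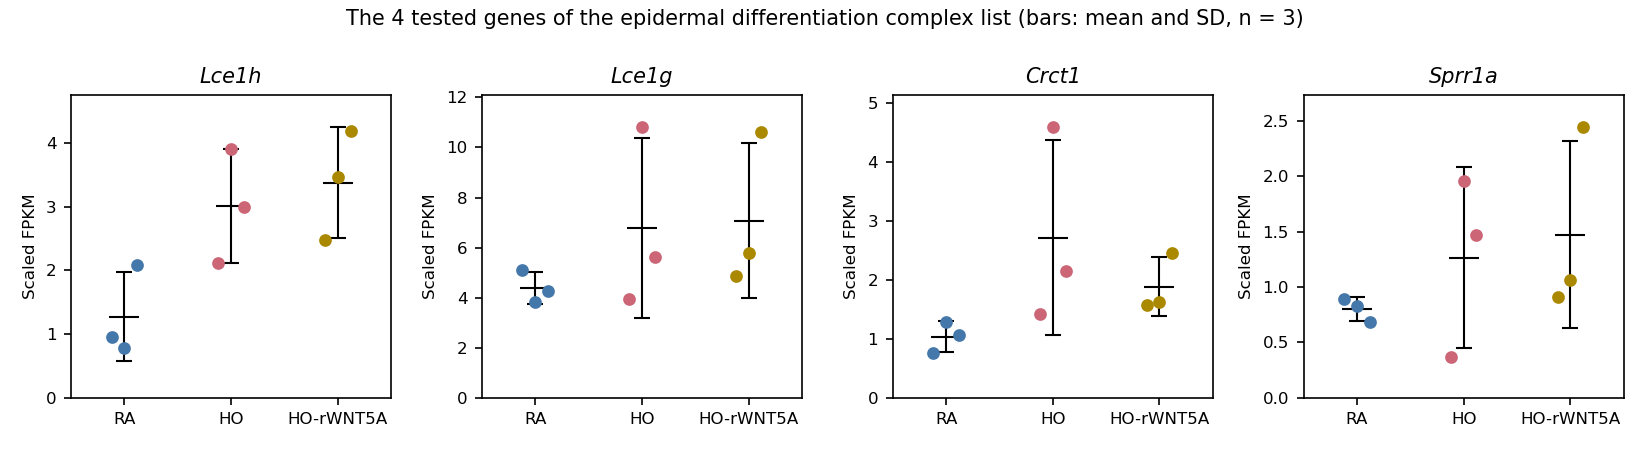
Level of the 4 tested epidermal differentiation complex genes in each library, in scaled FPKM on separate linear axes from 0 (points are libraries; bars are the mean and SD of 3). In each panel the second HO library and the third HO-rWNT5A library are the highest of their group, at 3.90 and 4.19 for Lce1h. The share of all tested genes with this order was not counted.

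Keratinocyte markers were nearly absent: of 10, 9 had a mean under 1 FPKM, Krt14 and Dsg3 were at 0 in all libraries, and Krt5 was at 0 in 8 of 9. Their summed level was 29.7 to 35.1 in RA, 35.9 to 50.3 in HO, then 35.5 to 46.1 in HO-rWNT5A, nearly all of it Perp, a desmosome gene and known p53 target that is also expressed outside the skin. Perp had 34.2, 32.0 and 28.8 scaled FPKM in RA, 35.4, 49.8 and 43.9 in HO, with 35.0, 38.3 and 45.6 in HO-rWNT5A. Its log2 difference in HO against RA was 0.42 ± 0.13 (limma adjusted p = 0.123).

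Among 26 genes linked to psoriasin in stressed keratinocytes, such as cytokines and antimicrobial peptides, 22 were found and 7 were tested. Of those found, 15 had a mean under 1 FPKM. Krt6a, Krt6b, Krt16, Defb3, Defb4, Serpinb3a and Il1b were at 0 in all libraries. In HO against RA 0 passed, with 4 of 7 at an unadjusted p of 0.05 (18.1% of all tested genes). Those 4 were Ptgs2 and, named after their values were seen, Areg, Ereg and Hbegf. In HO-rWNT5A against HO 0 passed, with 1 of 7 unadjusted (9.2% of all). In HO-rWNT5A against RA 1 of 7 rose (4.26% of all passed). It was Ptgs2, which encodes the inducible cyclooxygenase of prostaglandin synthesis, at 18.6, 19.9 and 20.2 scaled FPKM in RA, 23.0, 31.9 and 29.9 in HO, with 33.1, 32.3 and 42.9 in HO-rWNT5A. Its log2 difference from RA was 0.84 ± 0.13 in HO-rWNT5A (limma adjusted p = 0.00861) and 0.50 ± 0.13 in HO (0.0779). Lcn2, which encodes lipocalin 2, passed the level filter through HO-rWNT5A, with means of 0.989 in RA and 0.942 in HO. The medians of the 7 genes were 0.20, -0.08 and 0.14 in HO against RA, HO-rWNT5A against HO and HO-rWNT5A against RA.

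Of the intracellular partners of S100 proteins, 27 of 30 listed genes were tested. In HO against RA 1 of 27 rose and 0 fell (1.97% of all tested genes passed). In HO-rWNT5A against HO 0 passed, with 1 of 27 at an unadjusted p of 0.05 (9.2% of all). In HO-rWNT5A against RA 1 rose and 1 fell (4.26% of all passed). The gene that rose in both was Mdm2, which encodes the ubiquitin ligase that restrains p53. It had 156, 158 and 146 scaled FPKM in RA, 209, 217 and 258 in HO, with 228, 263 and 264 in HO-rWNT5A, with log2 differences of 0.57 ± 0.092 (limma adjusted p = 0.0196) and 0.71 ± 0.092 (0.0049). The first of these calls was lost without any 1 of the RA libraries (0.0719 to 0.0861). The medians of the 27 were -0.02, 0.00 and -0.03 in the 3 comparisons.

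The gene that fell was Myh10, a non-muscle myosin heavy chain, at -0.37 ± 0.090 (limma adjusted p = 0.0479). It is named after its value was seen, as are Anxa1, Anxa2, Egfr and Calr. Without any 1 of the RA or HO-rWNT5A libraries Myh10 did not pass (0.0821 to 0.163). Fgf1, the growth factor released with S100a13, had the smallest p of the partners in HO-rWNT5A against HO, with a log2 difference of -0.24 ± 0.094 (limma adjusted p = 0.503).

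The annexin partners were abundant. Anxa2, the partner of S100a10, had 313, 344 and 335 scaled FPKM in RA, 320, 322 and 270 in HO, with 296, 294 and 284 in HO-rWNT5A. Anxa1, the partner of S100a11, had 228, 230 and 232, then 251, 192 and 188, then 201, 183 and 184. For both, every HO-rWNT5A library was below every RA library, as for 16.5% of tested genes, but the log2 differences of -0.18 ± 0.080 and -0.28 ± 0.100 did not pass (limma adjusted p = 0.236 and 0.148).

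Of 16 genes for S100 receptors and their signalling, 10 were tested. None passed in HO against RA, with 2 of 10 at an unadjusted p of 0.05 (18.1% of all tested genes), and 0 passed in HO-rWNT5A against HO, with 1 of 10 unadjusted (9.2%). In HO-rWNT5A against RA, where 4.26% of all genes passed, 1 of 10 rose, Egfr, the epidermal growth factor receptor, by 0.21 ± 0.051 (limma adjusted p = 0.0495). That call held in 6 of 20 alternatives and was lost without any 1 of the RA or HO-rWNT5A libraries (0.0924 to 0.175) and without HO replicate 1 (0.0568). Ager, the gene of the receptor RAGE, was under the filter at a mean of 0.783 scaled FPKM. Tlr4, the receptor of calprotectin, averaged 11.9 in RA, 12.5 in HO, then 10.8 in HO-rWNT5A, and its log2 difference of -0.20 ± 0.076 between the hyperoxic groups did not pass (limma adjusted p = 0.502). Bsg, the basigin receptor of S100A9, averaged 169, 186 and 170. Erbb4 passed the level filter with a mean of 0.793 in HO-rWNT5A. The medians of the 10 were 0.09, -0.02 and 0.06.

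Other calcium-binding proteins of the EF-hand kind and calcium buffers of the cell were tested in 38 of 44 cases. None passed in HO against RA, with 5 of 38 at an unadjusted p of 0.05 (18.1% of all tested genes), and 0 passed in HO-rWNT5A against HO, with 4 of 38 unadjusted (9.2%). In HO-rWNT5A against RA, where 4.26% of all genes passed, 1 of 38 fell, Calr, which encodes the calcium-storing chaperone calreticulin, by -0.33 ± 0.075 (limma adjusted p = 0.0377). That call held in 11 of 20 alternatives and was lost without any 1 of the RA or HO-rWNT5A libraries (0.0906 to 0.138). Efhd1, a mitochondrial EF-hand protein, had the smallest p between the hyperoxic groups, at -0.37 (limma adjusted p = 0.50). The medians of the 38 were 0.00, -0.06 and -0.05.

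Across the 9 libraries the tested genes whose pattern was most like that of S100a7a, by Pearson r on log2(scaled FPKM + 1), were Nipal4 (0.988), Tbc1d2 (0.982), Slc1a6 (0.982), Plcxd2 (0.976), Epha2 (0.974) and Dhx9 (0.973). They are the highest of 13831 genes compared over libraries that share their groups, so r is a description. Nipal4, a transporter-like gene known from skin disease, averaged 5.96 scaled FPKM in RA, 8.07 in HO, then 8.67 in HO-rWNT5A. Epha2, a receptor of ephrins, averaged 83.9, 113 and 122. The other S100 genes were left out of this ranking beforehand, so their absence from the 6 says nothing. Their own r to S100a7a was -0.61 for S100a10, -0.32 for S100a1 and S100a13, and -0.25 for S100a16. It was -0.13 for S100a4, -0.05 for S100a6 and -0.03 for S100a11.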

How the data were processed

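Total RNA was sequenced from 9 libraries. Per the labels' protocols, reads were trimmed with Skewer 0.2.2, aligned with STAR 2.5.3a, and assembled and merged with StringTie 1.3.1, with gffcompare 0.9.9c to compare them with Ensembl annotation. The authors deposited FPKM per transcript, and per the submitters' processing notes both hg38 and mm10 are listed. The Ensembl release and whether strand was used are not given in the sources used here. FPKM values were summed per gene over Ensembl transcripts named by GENCODE M21 (99.36% of 142351 matched). They were scaled by median ratios. The 13831 genes that averaged 1 FPKM or more were fitted on log2(scaled FPKM + 1) in 1 limma 3.58.1 model (R 4.3.3) with a variance trend and all 9 libraries, so the 3 groups share 1 estimate of the spread. Benjamini-Hochberg adjustment ran over all tested genes, with a threshold of 0.05.

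FPKM holds no counts. Depth, estimated from the commonest lowest step of values, was 21300000 to 26500000 fragments per library. Only 8.02% to 9.02% of values came out as whole fragments within 0.02, so no count test was run.

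The named genes were the 10 S100 genes, other family members, the 4 nearest tested genes on each side, up to 3 genes per list by p, the 6 most like S100a7a, and markers; genes named after their values were seen are said to be so. The members and lists were chosen with earlier results of these data known. Alternatives were other pseudocounts (0.1 and 5), filters, scalings and variance models, 2 groups alone, a replicate block, and each library left out. The procedure was tested on simulated data. Promoters came from RefSeq (GRCm38.p6).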

Additional observations from a re-analysis of the deposited data

How the results depend on the processing

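The 7 other tested S100 genes passed the threshold in 0 of 420 fits (7 genes, 3 comparisons and 20 alternatives). In the main fits 1.97%, 0.00723% and 4.26% of all tested genes passed in HO against RA, HO-rWNT5A against HO and HO-rWNT5A against RA. All fits draw on the same 9 libraries, so the 420 are not separate results, and a count of 0 is near the background. S100a7a was chosen on its rise against RA, so its passing there is no support. Its log2 difference in HO against RA ran from 0.54 (pseudocount 5) to 1.21 (pseudocount 0.1), and it fell short of the threshold with pseudocount 5, with no filter, without any 1 of the RA libraries, and without HO replicate 2.

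Genes called in HO against RA numbered 273 (167 higher, 106 lower). They were 69 with no filter, 67 with the 2 groups alone, 116 with the replicate block, and 3 to 704 with 1 library left out (3 without RA replicate 2, 704 without HO replicate 3). On FPKM as deposited, which shifts the median of all genes against RA by -0.06, 103 were higher and 179 lower. Scaling by the summed protein-coding FPKM gave 105 higher and 96 lower. HO-rWNT5A against HO gave 1 call, 0 with no filter, 3 with the 2 groups alone, 2 with the replicate block and 1 to 27 with 1 library left out. HO-rWNT5A against RA gave 589 (331 higher, 258 lower), 222 with no filter, 1330 with the 2 groups alone, 393 with the replicate block and 125 to 1017 with 1 library left out, with 209 higher and 615 lower on FPKM as deposited. The cause of these shifts was not tested. The alternatives for Mdm2 and Notch3 in HO against RA were added after seeing the data: Mdm2 passed in 14 of 20 and Notch3 in 10 of 20.

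Differences near 0 changed sign, none of them called. In HO against RA 6 of the 7 relatives did so in 1 to 4 of 20 alternatives, S100a16 being the exception: S100a1 ran from -0.03 to 0.19, S100a4 from -0.13 to 0.22, S100a6 from -0.10 to 0.10, S100a10 from -0.17 to 0.03, S100a11 from -0.14 to 0.14 and S100a13 from -0.28 to 0.10. In HO-rWNT5A against HO, with 1 library left out, S100a4 ran from -0.13 (without HO replicate 3) to 0.23, S100a6 from -0.03 (without HO replicate 3) to 0.17, S100a7a from -0.03 (without HO-rWNT5A replicate 3) to 0.33, S100a13 from -0.23 (without HO replicate 3) to 0.16, and S100a11 from -0.17 to 0.10 (without HO replicate 2). S100a11 was 0.02 with quantile normalization and with the protein-coding total. In HO-rWNT5A against RA, S100a4 ran from -0.0044 (without HO-rWNT5A replicate 1) to 0.20 and S100a11 from -0.08 to 0.03 (without RA replicate 3 or HO-rWNT5A replicate 2).

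The replicate numbers were not taken to pair the libraries: deviations of same-numbered libraries correlated at -0.12 to 0.28, and 5 of 9 libraries correlated best with one of their own number. FPKM without counts and 3 libraries per group limit the precision of low genes.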
